A study of Drosophila melanogaster with 6 samples.

Results

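The genes described here encode the proteasome of the adult Drosophila melanogaster testis, both the subunits that are used throughout the body and the duplicated genes, or paralogs, that stand in for some of them in male germ cells. Members were chosen by gene symbol alone: every gene whose symbol starts with Prosalpha, Prosbeta, Rpn plus a digit or Rpt plus a digit. This gave 48 genes of 17612. A member with a T or an R after its subunit number was taken as the paralog of the member without that letter. There were 16 paralogs and 32 ubiquitous subunits. Of the ubiquitous subunits, 12 had a paralog, 8 of them with 1 and 4 of them (Prosalpha4, Prosbeta2, Prosbeta4 and Prosbeta5) with 2.

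The proteasome destroys proteins that carry chains of ubiquitin. Its barrel-shaped core particle is built from alpha-subunit rings, which gate the entrance, and beta-subunit rings, some of which hold the protein-cutting sites. Its regulatory particle is built from Rpt subunits, ATPases that unfold the substrate and feed it into the core, and from Rpn subunits, which bind ubiquitin chains, remove them or hold the particle together. Germ cells of the fly testis pass from germline stem cells (GSCs) through dividing spermatogonia and spermatocytes to spermatids, and the spermatids then elongate, lose most of their cytoplasm and become individual sperm. Loss of the paralog Prosalpha6T is known to leave male flies sterile.

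The study profiled single cells of whole testes by 10x 3′ RNA sequencing, which counts each captured RNA molecule once through its unique molecular identifier (UMI). Adult males of 2 strains were compared at 3 ages (3 to 5, 6 to 8 and 9 to 11 days), with 1 library per strain and age and about 100 pairs of testes pooled in each. Wild-type flies were Oregon R. The mutant strain, ChinmoST, carries an allele of the transcription factor gene chinmo that lowers it in cyst cells, the somatic partners that wrap each group of germ cells. The genotype field of these samples names an allele of Sod1 with ebony over the balancer TM3, and no allele of chinmo. Spermatids were depleted by filtering, to enrich early germ cells and cyst cells. The authors' names for 17 cell types were used as deposited for 26549 cells, and counts were summed per library and type. Levels are given as CPM, the UMIs of a gene divided by all UMIs of that cell type in that library and scaled to 1000000. As each molecule is counted once, levels of different genes were not scaled by gene length. Unless said otherwise, values are the mean ± SD of the 6 libraries, and lists of 3 values follow the order of the 3 ages. The 3 ages of a strain served as its replicates, so the spread between them holds age and preparation together.

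The libraries held from 73222741 to 125618077 UMIs, with 3273 to 6660 kept cells and a median of 1865 to 4123 UMIs per kept cell. Barcodes with more than 6000 genes, which the authors left out, held 47.4 to 76.4% of the UMIs of a library. The 2 youngest libraries shared 34 cell barcodes, and any other pair shared at most 7. GSCs/spermatogonia were few in wild-type, with 18, 6 and 4 cells at the 3 ages against 49, 211 and 162 cells in chinmoST. There, a single UMI was worth 46.0 and 46.5 CPM in the 2 older wild-type libraries, so levels in them rest on a handful of molecules. Of the markers used to check the names, 5 germline stem cell and spermatogonial genes summed to 632 CPM in GSCs/spermatogonia and to 135 CPM in early spermatocytes, and 10 spermatocyte genes to 1043, 1359 and 1051 CPM in early, intermediate and late spermatocytes. The spermatid list (7 genes) was already at 11932 CPM in late spermatocytes, was at 7805 CPM in early spermatids, and reached 14542 CPM in late spermatids. The hub list (4 genes) summed to 165 CPM in hub cells and 151 CPM in cyst stem cells (CySCs). In somatic cells at the base of the testis it was at 671 CPM. The list of CySC and cyst cell genes (7 genes) was at 769 CPM in hub cells and 758 CPM in CySCs. These sums thus did not tell hub cells from CySCs.

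Along the germline, transcripts of the paralogs took the place of those of their ubiquitous partners. The measure used was the paralog share, the UMIs of all paralogs as a percentage of the UMIs of paralogs and their ubiquitous partners together. The share was 15.1 ± 10.1% in GSCs/spermatogonia, 48.9 ± 9.17% in early spermatocytes, 71.8 ± 5.84% in intermediate spermatocytes and 79.7 ± 3.31% in late spermatocytes. Spermatids held 80.8 ± 1.01% at their early and 80.3 ± 0.642% at their late stage. Over the 6 libraries, the mean share was higher in each stage than in the one before as far as the early spermatids. Late spermatocytes, early spermatids and late spermatids were within 1 SD of each other. From late spermatocytes to early spermatids the mean went from 82.4 to 81.3% in wild-type but from 77.1 to 80.3% in chinmoST. Because the authors named cell types from the same cells and genes, differences between stages are given as descriptions with no test.

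**Figure D1:**
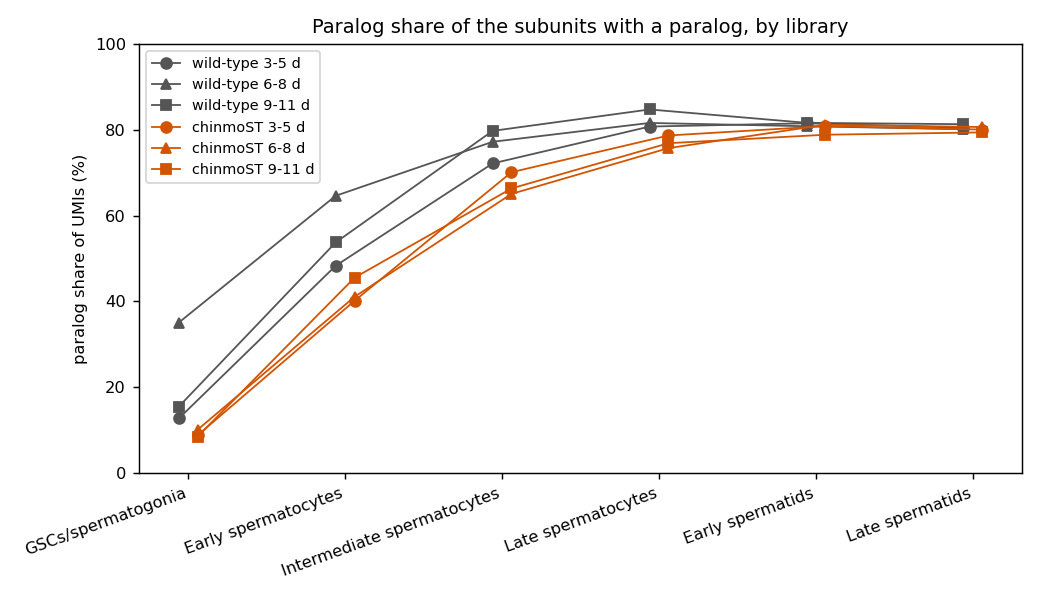
Paralog share (percent of the UMIs of paralogs and their ubiquitous partners) in each germline stage for each of the 6 libraries, wild-type and chinmoST. Every library lies between 8.47 and 35.1% in GSCs/spermatogonia and between 78.8 and 81.6% in early spermatids, and the 3 chinmoST libraries lie below the 3 wild-type libraries from GSCs/spermatogonia to late spermatocytes.

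The summed level of the paralogs was 676 ± 505 CPM in GSCs/spermatogonia, 2824 ± 665 CPM in early spermatocytes and 3773 ± 268 CPM in late spermatocytes, while the ubiquitous subunits that have a paralog went from 3638 ± 1457 to 2966 ± 827 and then 966 ± 196 CPM. In early spermatids these sums were 3469 ± 343 CPM for the paralogs and 824 ± 89.4 CPM for their partners. The 20 ubiquitous subunits with no paralog summed to 6411 ± 2365 CPM in GSCs/spermatogonia and 7192 ± 1119 CPM in early spermatocytes, then to 4595 ± 378 CPM in late spermatocytes and 4593 ± 219.8 CPM in early spermatids. Of the ubiquitous members, 16 had their highest germline level in GSCs/spermatogonia, 15 in early spermatocytes and 1 in early spermatids. Of the paralogs, 7 were highest in early spermatids, 3 in late, 3 in intermediate and 2 in early spermatocytes, and the remaining one was listed at 0 throughout.

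**Figure D2:**
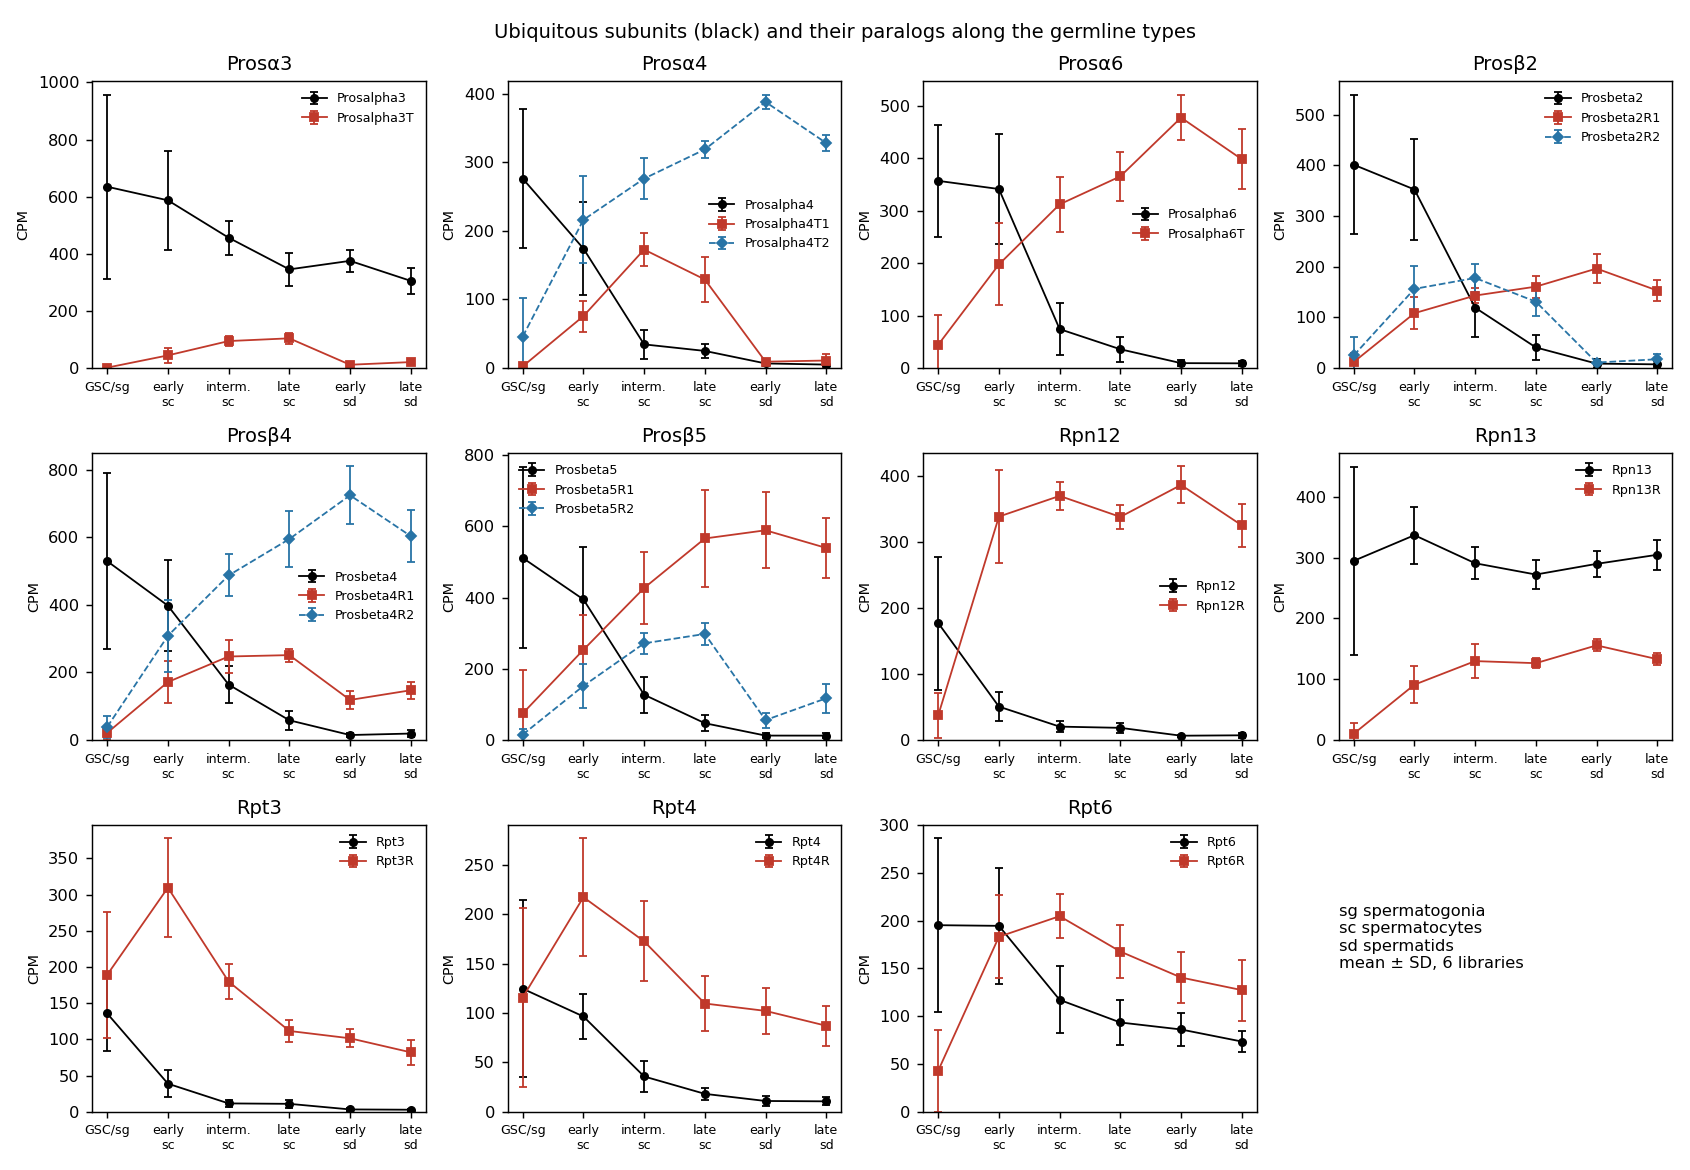
CPM (mean ± SD of 6 libraries, linear axis) of each ubiquitous subunit, in black, and its paralogs over the 6 germline stages (sg spermatogonia, sc spermatocytes, sd spermatids), 1 panel per subunit. The ubiquitous gene lies below its highest paralog from intermediate spermatocytes onwards, except that Prosalpha3 and Rpn13 stay above their paralogs throughout.

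In the alpha ring, and leaving aside Prosalpha1, Prosalpha4 had the lowest level of the ubiquitous alpha subunits from GSCs/spermatogonia onwards, with 276 CPM there against 665 CPM for Prosalpha5, the highest. By late spermatocytes Prosalpha4 was at 28.6, 17.1 and 9.02 CPM in wild-type flies against 33.3, 36.0 and 26.4 CPM in chinmoST flies, and by early spermatids at 6.83 ± 4.28 CPM. Prosalpha7 was the highest ubiquitous alpha subunit in both of these stages, at 452 and 516 CPM. Both paralogs of Prosalpha4 were present in spermatocytes, but their courses differed. Prosalpha4T2 (chr2R:24500780-24502277, dm6) was at 46.0 ± 56.1 CPM in GSCs/spermatogonia, 216 ± 63.2 CPM in early and 319 ± 12.5 CPM in late spermatocytes, and 388 ± 10.1 CPM in early spermatids. Prosalpha4T1 (chr3R:20748184-20749074) went from 2.57 ± 3.15 CPM in GSCs/spermatogonia to 173 ± 24.6 CPM in intermediate spermatocytes, its highest stage, and was at 9.38 ± 3.45 CPM in early spermatids. The paralogs made 62.2 ± 13.1% of the Prosalpha4 UMIs in early spermatocytes and 98.3 ± 1.02% in early spermatids.

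Prosalpha6 and its paralog Prosalpha6T (chr2L:13232039-13233058) changed places later, between early and intermediate spermatocytes. Prosalpha6T was at 252, 321 and 208 CPM in wild-type flies against 140.3, 112 and 154 CPM in chinmoST flies in early spermatocytes and at 555, 469.8 and 444 CPM in wild-type flies against 497, 438 and 464 CPM in chinmoST flies in early spermatids. Every early spermatid library was thus above every early spermatocyte library for this gene. Prosalpha6 went the other way, from 357 ± 107 CPM in GSCs/spermatogonia to 36.0 ± 24.2 CPM in late spermatocytes and 9.53 ± 5.11 CPM in early spermatids. The Prosalpha6T share of the pair was 37.0 ± 15.2%, 80.9 ± 12.1% and 98.0 ± 1.06% in early spermatocytes, intermediate spermatocytes and early spermatids.

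Prosalpha3 did not follow this course. The ubiquitous gene stayed high, from 635 ± 322 CPM in GSCs/spermatogonia to 376 ± 38.5 CPM in early spermatids, and its paralog Prosalpha3T (chr3R:31122527-31123415) made at most 23.6 ± 5.52% of the pair, in late spermatocytes. Prosalpha3T was at 104 ± 19.4 CPM in late spermatocytes and 11.9 ± 2.60 CPM in early spermatids. Prosalpha1 and Prosalpha1R could not be described: they held 19 and 0 UMIs over all libraries and types, although an alpha ring needs its first subunit. They are neighbours on chromosome arm 2R, 1734 bases apart on the same strand, and whether reads shared between them were left uncounted was not tested, so their levels are uncertain.

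The beta ring gave the highest paralog levels. Prosbeta5 carries the site that cuts after bulky hydrophobic residues (the chymotrypsin-like site), and its paralogs are Prosbeta5R1 (chr2R:23308654-23309816) and Prosbeta5R2 (chr2L:17990418-17991951). Prosbeta5 was at 519, 234 and 326 CPM in wild-type flies against 629, 344 and 315 CPM in chinmoST flies in early spermatocytes and at 45.4, 34.8 and 12.6 CPM in wild-type flies against 52.9, 79.1 and 57.2 CPM in chinmoST flies in late spermatocytes, with no overlap between the 2 stages. Prosbeta5R1 was at 399.9, 333 and 246 CPM in wild-type flies against 219, 152 and 168 CPM in chinmoST flies in early spermatocytes and at 787, 487 and 524 CPM in wild-type flies against 676, 446 and 475 CPM in chinmoST flies in late spermatocytes, and again the stages did not overlap. In early spermatids Prosbeta5R1 was at 589 ± 106 CPM, while Prosbeta5R2 had gone from 298 ± 31.3 CPM in late spermatocytes to 55.7 ± 21.0 CPM. In late spermatids Prosbeta5R2 was at 117 ± 40.9 CPM.

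Prosbeta2 carries the trypsin-like site, which cuts after basic residues. Its level was 401 ± 138 CPM in GSCs/spermatogonia and 8.91 ± 8.74 CPM in early spermatids, where it was the lowest ubiquitous beta subunit. Prosbeta2R1 (chrX:5808954-5810158) was at 108 ± 31.1, 161 ± 21.7 and 197 ± 28.7 CPM in early spermatocytes, late spermatocytes and early spermatids. Prosbeta2R2 (chr3R:5217751-5219528) was at 156 ± 46.1, 131 ± 27.6 and 11.1 ± 4.72 CPM in the same stages. Prosbeta2R2 was thus the higher of these paralogs in the mean in early spermatocytes and the lower in early spermatids. Prosbeta1, which carries the remaining, caspase-like site and has no paralog among the members, was the highest ubiquitous beta subunit in early spermatids, at 617 CPM.

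Prosbeta4, a beta subunit with no cutting site, has paralogs that lie next to each other in the genome, Prosbeta4R1 (chr2L:2653046-2653926) and Prosbeta4R2 (chr2L:2655394-2657102), on the same strand and 1467 bases apart. Over all libraries and types they held 17661 and 73297 UMIs. Prosbeta4R2 was the paralog with the highest level of all, at 595 ± 83.1 CPM in late spermatocytes and 725 ± 85.3 CPM in early spermatids. Prosbeta4R1 was at 251 ± 19.1 and 118 ± 27.3 CPM in these stages. Prosbeta4 itself went from 529.7 ± 261 CPM in GSCs/spermatogonia to 14.5 ± 5.94 CPM in early spermatids. Prosbeta4R2 overlaps Or23a on its strand, and how this overlap affected its UMI count was not tested.

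Among the Rpn subunits, Rpn12, a component of the lid of the regulatory particle, was below its paralog from early spermatocytes onwards. Rpn12R (chr3L:15041631-15042570) was at 418, 350.3 and 406 CPM in wild-type flies against 348, 250.0 and 259.7 CPM in chinmoST flies in early spermatocytes, while Rpn12 was at 56.1, 27.9 and 22.4 CPM in wild-type flies against 81.4, 52.0 and 63.6 CPM in chinmoST flies. Rpn12R was therefore above Rpn12 in every library already in this stage, and made 86.6 ± 6.17% of the pair there and 94.9 ± 1.91% in late spermatocytes. Rpn12 was the lowest ubiquitous Rpn subunit in late spermatocytes and early spermatids, at 18.3 and 6.42 CPM, and Rpn6, a scaffold of the lid, was the highest, at 277 and 328 CPM. Rpn12R overlaps Sytbeta on its strand.

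Rpn13 is a ubiquitin receptor of the regulatory particle, and it kept its level: 295 ± 155 CPM in GSCs/spermatogonia, 272 ± 24.1 CPM in late spermatocytes and 289.8 ± 21.9 CPM in early spermatids. Its paralog Rpn13R (chrX:5131898-5132985) was added to it, at 10.2 ± 17.9, 126 ± 8.23 and 156 ± 9.99 CPM. The Rpn13R share reached 35.0 ± 2.16% in early spermatids. Rpn13R lies within overlapping genes on its strand (CG15465 and rg).

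The Rpt ATPases with a paralog were Rpt3, Rpt4 and Rpt6. Rpt3R (chr3R:9754735-9756510) and Rpt4R (chr3L:11941912-11943485) had the highest mean levels of the paralogs in GSCs/spermatogonia. They were also the only ones with their highest level in early spermatocytes. Rpt3R was at 249, 322 and 93.0 CPM in wild-type flies against 209.8, 142 and 119 CPM in chinmoST flies in GSCs/spermatogonia, at 309.6 ± 68.2 CPM in early spermatocytes and at 112 ± 15.4 CPM in late spermatocytes. It made 56.8 ± 10.4% of the Rpt3 pair in GSCs/spermatogonia and 88.9 ± 4.88% in early spermatocytes. Rpt4R was at 203, 230.0 and 46.5 CPM in wild-type flies against 151, 39.2 and 24.1 CPM in chinmoST flies in GSCs/spermatogonia, at 217 ± 59.9 CPM in early spermatocytes and at 109.6 ± 28.1 CPM in late spermatocytes. The lowest values of Rpt4R in GSCs/spermatogonia were those of the older chinmoST libraries, which held the most cells of this type. In the oldest wild-type library its level was that of 1 UMI. Rpt3 went from 136 ± 51.4 CPM in GSCs/spermatogonia to 3.17 ± 2.11 CPM in early spermatids, the lowest level of any ubiquitous Rpt subunit, and Rpt4 from 125 ± 89.9 to 10.9 ± 5.22 CPM. Rpt6 kept a part of its level, with 195 ± 90.9 CPM in GSCs/spermatogonia and 86.0 ± 17.1 CPM in early spermatids, beside 140.4 ± 26.8 CPM of Rpt6R (chr3R:30582198-30583697). The Rpt6R share was 64.4 ± 6.41% in intermediate spermatocytes and 62.0 ± 1.86% in early spermatids.

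To count the members that moved between stages, each library's late spermatocytes were set against its own GSCs/spermatogonia, and a gene was counted where its log2 CPM (with a prior count of 2) differed by at least 2-fold in the same direction in every one of the 6 libraries. Of the 46 members with at least 10 UMIs over both stages in every library, 10 were higher in late spermatocytes, against 29.9% of all 6833 genes measured. These were 10 of 15 paralogs and 0 of 31 ubiquitous members. Prosalpha3T, Prosalpha4T1, Prosalpha4T2, Prosalpha6T, Prosbeta2R1, Prosbeta4R1, Prosbeta4R2, Prosbeta5R2, Rpn12R and Rpn13R made up the 10. Their mean log2 differences ran from 3.85 ± 1.79 for Rpn12R to 5.59 ± 1.36 for Prosalpha4T1. Where a paralog had no UMI in a library's GSCs/spermatogonia, its difference there rests on the prior count. Prosbeta2R2, Prosbeta5R1 and Rpt6R fell short only in the older wild-type libraries, with log2 differences of 0.52, 0.59 and 0.70 in the 6 to 8 day library. Rpt3R was lower in late spermatocytes in every library, by less than 2-fold in 4 of them, at -0.64 ± 0.63. Rpt4R differed in sign between libraries, at 0.37 ± 1.63.

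Lower in late spermatocytes were 8 members, against 10.6% of all genes. Of the 11 measured ubiquitous subunits that have a paralog, 7 were lower, with mean log2 differences of -3.45 ± 0.62 for Prosalpha4, -3.55 ± 1.30 for Prosalpha6, -3.46 ± 1.47 for Prosbeta2, -3.19 ± 1.40 for Prosbeta4, -3.41 ± 1.42 for Prosbeta5, -3.11 ± 0.66 for Rpn12 and -3.56 ± 0.73 for Rpt3. Of the 20 with no paralog, only Rpn1, a ubiquitin-binding scaffold at the base of the regulatory particle, was lower, at -2.52 ± 0.48. Rpt4 stood at -1.72 ± 3.16, because the wild-type 6 to 8 day GSCs/spermatogonia held no Rpt4 UMI and that library alone gave a difference above 0. Over all genes measured the median log2 difference was 1.18 between these stages, so a member at 0 on this scale was below the median gene. The median was 4.21 over the 15 paralogs, such differences included, and -0.76 over the 31 ubiquitous members.

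From late spermatocytes to early spermatids no member was at least 2-fold higher in every library, as was true of 0% of the 8319 genes measured, and 7 of 46 members were at least 2-fold lower, against 14.9% of all genes. The median log2 difference over all genes was -0.44. Of the 7, 4 were paralogs: Prosalpha4T1 at -3.77 ± 0.48, Prosbeta2R2 at -3.59 ± 0.61, Prosalpha3T at -3.10 ± 0.47 and Prosbeta5R2 at -2.47 ± 0.43. The other 3 were the ubiquitous beta subunits Prosbeta2, Prosbeta4 and Prosbeta5, at -2.27 ± 0.82, -1.89 ± 0.41 and -1.95 ± 0.61. Prosbeta4R1 lay just outside the threshold, at -1.11 ± 0.25. It fell short at -0.79 in wild-type flies and -0.95 in chinmoST flies of 3 to 5 days. In wild-type flies of 6 to 8 days it fell short at -0.99.

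These 4 paralogs were at low levels in early spermatids. Prosalpha4T1 was at 115, 99.1 and 137 CPM in wild-type flies against 92.7, 156 and 175 CPM in chinmoST flies in late spermatocytes and at 7.36, 11.9 and 6.04 CPM in wild-type flies against 6.70, 9.37 and 14.9 CPM in chinmoST flies in early spermatids. Prosbeta2R2 was at 114, 132 and 139 CPM in wild-type flies against 88.9, 171 and 141 CPM in chinmoST flies in late spermatocytes and at 10.5, 14.9 and 6.80 CPM in wild-type flies against 7.79, 7.81 and 18.6 CPM in chinmoST flies in early spermatids. In both genes the lowest late spermatocyte library was above the highest early spermatid library. In contrast, Prosalpha4T2, Prosalpha6T, Prosbeta2R1, Prosbeta4R2, Rpn12R and Rpn13R were slightly higher in early spermatids, with log2 differences of 0.28 ± 0.07, 0.39 ± 0.10, 0.29 ± 0.03, 0.29 ± 0.10, 0.19 ± 0.07 and 0.30 ± 0.05, and Prosbeta5R1 stood at 0.07 ± 0.12. The ATPase paralogs Rpt3R, Rpt4R and Rpt6R were at -0.13 ± 0.31, -0.10 ± 0.16 and -0.26 ± 0.08. So, of the 4 subunits with 2 paralogs, each had one paralog that stayed near its late spermatocyte level and another that was lower, past the threshold for Prosalpha4T1, Prosbeta2R2 and Prosbeta5R2 and by a smaller amount for Prosbeta4R1. The count of members past the threshold, 7 of 46, was near the 14.9% of all genes.

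**Figure D3:**
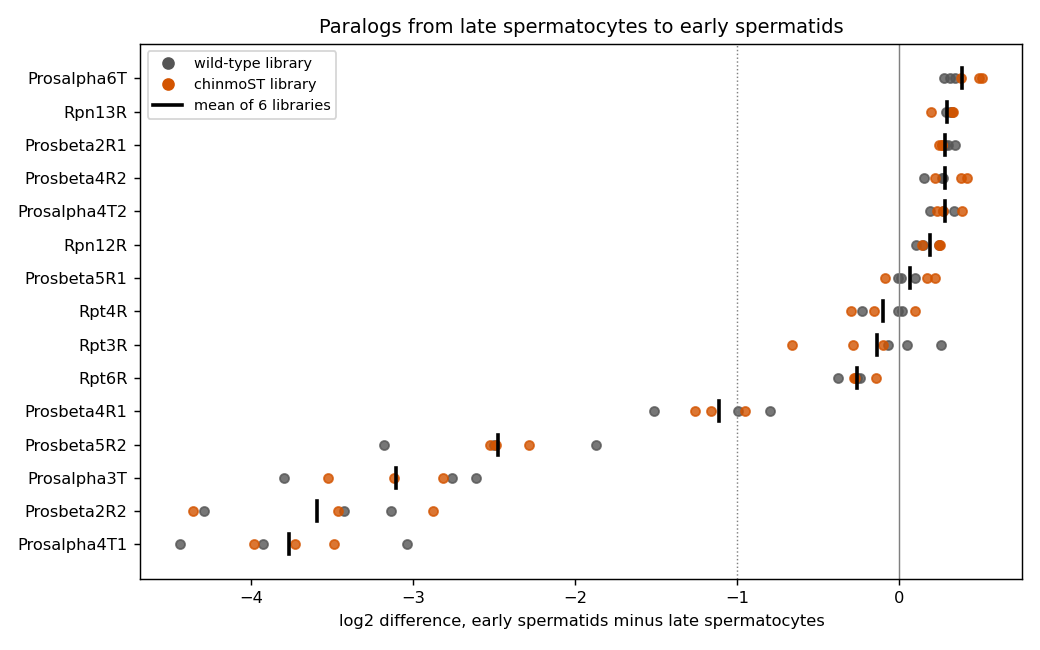
Log2 difference of CPM between early spermatids and late spermatocytes of the same library, for 15 paralogs, with 1 point per library coloured by strain, a bar at the mean and a dotted line at -1. Prosalpha4T1, Prosbeta2R2, Prosalpha3T and Prosbeta5R2 lie below -1 in all 6 libraries, while Prosalpha6T, Rpn13R, Prosbeta2R1, Prosbeta4R2, Prosalpha4T2 and Rpn12R lie above 0 in all 6.

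As a core particle holds its subunits in equal number, the total for each subunit (ubiquitous gene plus paralogs) was set against the median level of the 7 core subunits that have no paralog among the members measured. For the ubiquitous gene alone, this ratio in early spermatids was 0.0177 ± 0.0110 for Prosalpha4, 0.0247 ± 0.0128 for Prosalpha6, 0.0229 ± 0.0219 for Prosbeta2, 0.0378 ± 0.0157 for Prosbeta4 and 0.0315 ± 0.0185 for Prosbeta5. With the paralogs added, the total of Prosalpha4 was 0.718 ± 0.135 in GSCs/spermatogonia, 1.39 ± 0.105 in late spermatocytes and 1.05 ± 0.0327 in early spermatids, and that of Prosalpha6 was 0.898 ± 0.194, 1.18 ± 0.0811 and 1.27 ± 0.115. With paralogs counted, these alpha subunits thus stayed between 0.718 and 1.39 in these stages. The totals of the beta subunits lay further apart. Prosbeta4 and Prosbeta5 were at 2.66 ± 0.276 and 2.68 ± 0.407 in late spermatocytes, and Prosbeta2 was at 0.978 ± 0.108 there and at 0.563 ± 0.0796 in early spermatids, where Prosbeta2R2 was low. The core subunits with no paralog also differed among themselves. Prosbeta1 was at 617 CPM in early spermatids, where their median was 385 CPM. Transcript levels do not give the number of protein subunits.

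**Figure D4:**
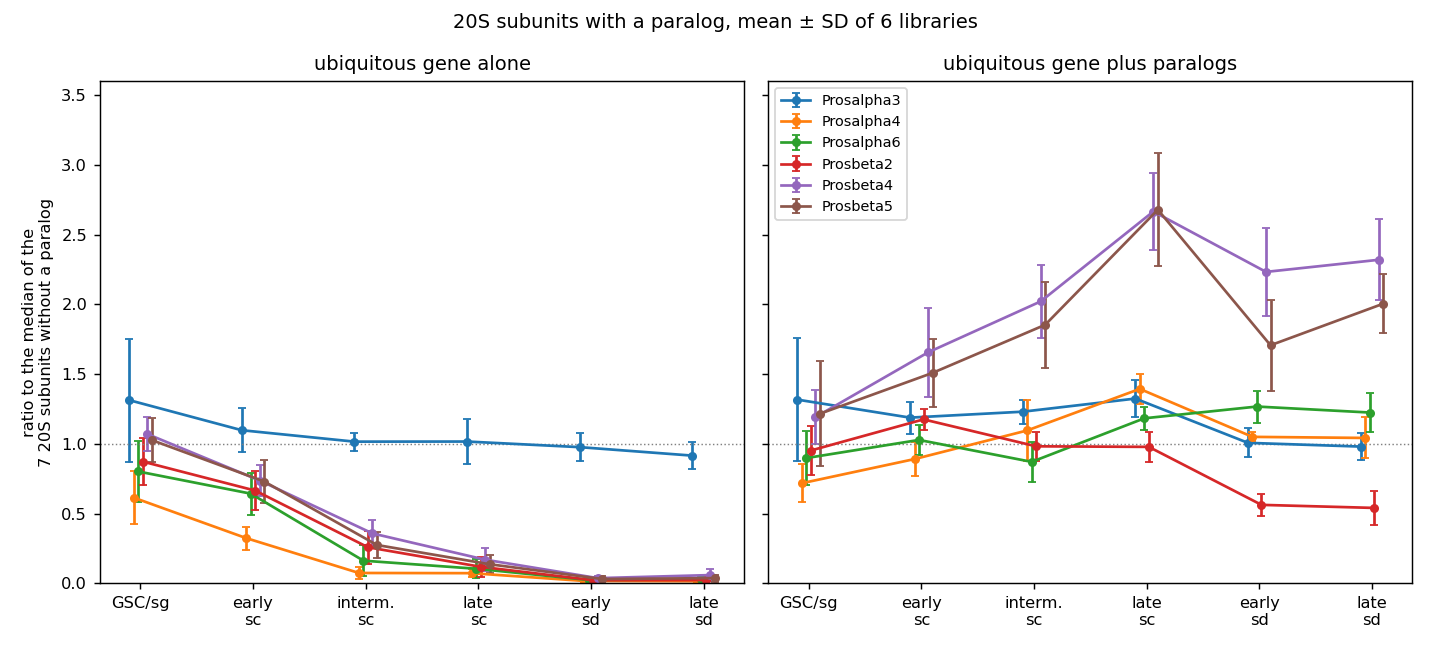
Ratio of 6 core subunits to the median of the 7 core subunits with no paralog, over the germline stages (mean ± SD of 6 libraries), for the ubiquitous gene alone (left) and with its paralogs added (right). On the left 5 subunits approach 0 by early spermatids and Prosalpha3 stays near 1, and on the right the totals lie between 0.563 and 2.23 in early spermatids.

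Paralog transcripts were also counted in somatic cells. Their share was lowest in CySCs, the cyst stem cells, at 4.84 ± 1.32%, early cyst cells, at 6.71 ± 3.80%, and hub cells, at 7.05 ± 5.36%. It was 22.5 ± 8.81% in intermediate and 24.9 ± 8.69% in late cyst cells, 16.7 ± 10.6% in hemocytes, 41.0 ± 13.8% in muscle cells and 59.1 ± 8.93% in pigment cells. The summed level of the 7 spermatid marker genes in these types was 310.2 CPM in CySCs, 696 CPM in early, 2636 CPM in intermediate and 1292 CPM in late cyst cells, 2489 CPM in muscle and 4083 CPM in pigment cells. CySCs had the lowest and pigment cells the highest value of both measures among these types. Per 100 UMIs of the spermatid list there were 31.8 ± 2.10 paralog UMIs in late spermatocytes, 29.7 ± 3.25 in intermediate cyst cells, 39.1 ± 6.11 in late cyst cells and 43.8 ± 6.52 in pigment cells. Prosalpha6T alone gave 3.08 ± 0.349, 3.01 ± 0.364, 3.85 ± 0.871 and 4.40 ± 1.24 UMIs per 100 in the same types. In the other germline stages the value for all paralogs ran from 21.3 ± 2.36 in late spermatids to 134 ± 63.2 in GSCs/spermatogonia. For hub cells and CySCs it was 40.2 ± 12.9 and 57.0 ± 20.2. Whether somatic cells made paralog RNA of their own was not tested.

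Mean levels in pigment cells were set beside those in the germline stages. Depth per cell differed between types and libraries, so the pigment cell levels do not mark a background for the germline. In GSCs/spermatogonia, 13 of 15 paralogs had a mean level below that in pigment cells, and the exceptions were Rpt3R and Rpt4R. Rpt3R was at 189 CPM there against 75.4 CPM in pigment cells, and Rpt4R at 116 against 74.8 CPM. For Rpt4R, single libraries of GSCs/spermatogonia lay on both sides of its pigment cell mean. Per 100 spermatid-list UMIs, Rpt3R and Rpt4R together gave 85.9 ± 67.3 UMIs in GSCs/spermatogonia, 10.7 ± 5.28 in early spermatocytes and 1.89 ± 0.469 in late spermatocytes. In early spermatocytes only Prosbeta5R1 was still below its pigment cell level, and in intermediate and late spermatocytes 0 of 15 were. In early spermatids 4 were below it, and these were Prosalpha3T, Prosalpha4T1, Prosbeta2R2 and Prosbeta5R2.

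The comparison of the strains asked whether the proteasome genes of any cell type differed between chinmoST and wild-type testes. Counts of each of 11 cell types were tested with the quasi-likelihood test of edgeR, over all genes of that type. No member passed an adjusted p of 0.05 in any of the 11 types, and none did with DESeq2. The background was low too. Past the threshold were 0.34% of all genes tested in GSCs/spermatogonia, 4.03% in early, 0.466% in intermediate and 0% in late spermatocytes, 1.63% in early and 0.68% in late spermatids, 0% in each of hub cells, CySCs, early cyst cells and late cyst cells, and 0.0762% in intermediate cyst cells. At an unadjusted edgeR p under 0.05, the counts of members were 7 of 41 tested in GSCs/spermatogonia (19.1% of all genes), 9 of 46 in early spermatocytes (30%), 10 of 45 in intermediate spermatocytes (16%), 6 of 46 in late spermatocytes (11.9%), 2 of 46 in early spermatids (11.7%) and 3 of 45 in late spermatids (8.98%). They were 0 of 33 in hub cells (3.3% of all genes), 0 of 32 in CySCs (9.04%), 0 of 32 in early cyst cells (8.08%), 0 of 46 in intermediate cyst cells (9.17%) and 0 of 46 in late cyst cells (3.26%). The members' share was near or under the background other than in intermediate spermatocytes. Genes named below for a strain difference were picked by their p, so a lack of overlap between their libraries is no further support.

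In GSCs/spermatogonia, 7 paralogs were under an unadjusted p of 0.05, all at lower levels in chinmoST. The smallest p was that of Rpt6R, at 54.8, 92.0 and 93.0 CPM in wild-type flies against 11.5, 4.30 and 2.31 CPM in chinmoST flies. Its wild-type values were all above its chinmoST values, and its edgeR log2 fold change was -3.00 (SE 0.87 from the spread of the libraries, unadjusted p = 2.75e-04, adjusted p = 0.0563). Behind it were 33, 2 and 2 UMIs in wild-type and 24, 18 and 21 UMIs in chinmoST, so the older wild-type values rest on 2 molecules each. The median log2 fold change was -2.01 over the 10 paralogs tested, 0.12 over the ubiquitous members and 0.42 over all genes. The ubiquitous median was -0.37 without the youngest chinmoST library and -0.20 without the wild-type library of 6 to 8 days. It stayed positive without any other single library. The spermatid list moved the same way, at 676, 2622 and 883 CPM in wild-type flies against 284, 198 and 74.2 CPM in chinmoST flies, and its part in these values was not tested. Without the youngest chinmoST library 6 paralogs passed the adjusted threshold (Rpt6R, Prosbeta5R1, Rpn12R, Rpt4R, Prosbeta4R2 and Prosalpha4T2), 6 of 43 members tested against 32.9% of all genes, and without any other library 0 did.

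In early spermatocytes the median of the paralogs was again below that of the ubiquitous members. Paralogs had a median log2 fold change of -0.50, ubiquitous members of 0.27 and all genes of 0.06. Rpt3 had the smallest p, at 30.8, 14.0 and 25.6 CPM in wild-type flies against 61.7, 52.8 and 47.8 CPM in chinmoST flies, without overlap of the strains (log2 fold change 1.39, SE 0.35; edgeR adjusted p = 0.0636). Prosalpha6T, Prosbeta5R1, Prosbeta5R2, Prosbeta4R2, Prosalpha4T2 and Prosbeta4R1 were under an unadjusted p of 0.05 on the low side in chinmoST, and Rpt3, Rpn12 and Prosalpha4 on the high side. Prosalpha6T was at 252, 321 and 208 CPM in wild-type flies against 140.3, 112 and 154 CPM in chinmoST flies (log2 fold change -0.76, SE 0.22; edgeR adjusted p = 0.0791). The spermatid list was at 7495, 7723 and 8483 CPM in wild-type flies against 5259, 2536 and 3528 CPM in chinmoST flies in these cells, without overlap of the strains, and the germline stem cell and spermatogonial list at 77.8, 58.9 and 131 CPM in wild-type flies against 140.3, 194 and 210.4 CPM in chinmoST flies. The part of these shifts in the members' values was not tested. Without the youngest chinmoST library 4 of 46 members passed (Prosbeta4R2, Rpt3, Rpn6 and Prosbeta5R1), against 20.1% of all genes. Without the youngest wild-type library 2 of 46 did (Rpt3 and Rpn12), against 13.6% of all genes, and without any other library 0 did. Both counts of members were thus below the share of all genes.

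In intermediate spermatocytes the medians were -0.32 over paralogs, 0.12 over ubiquitous members and 0.01 over all genes. Prosbeta4 had the smallest p, at 149.7, 97.5 and 101 CPM in wild-type flies against 209, 216 and 209.7 CPM in chinmoST flies, with all chinmoST values above all wild-type values (log2 fold change 0.76, SE 0.19; edgeR adjusted p = 0.169). With the age of the flies as a block, since libraries of the same age deviated together in this type, 2 members passed the threshold against 6.59% of all genes. These were Prosbeta4 (adjusted p = 0.0234) and Prosbeta5R1, which was at 581, 454 and 445 CPM in wild-type flies against 452, 303 and 325 CPM in chinmoST flies (block log2 fold change -0.58; edgeR adjusted p = 0.035). Without the youngest wild-type library 5 of 45 members passed, against 6.56% of all genes, and all 5 were ubiquitous subunits that were higher in chinmoST: Prosalpha4, Prosalpha6, Prosbeta2, Prosbeta4 and Prosbeta5. Without any other library 0 passed. The spermatid list was at 12707, 10388 and 12403 CPM in wild-type flies against 10672, 5611 and 9241 CPM in chinmoST flies, and its part in these values was not tested.

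In late spermatocytes Rpt4R had the smallest p, at 86.8, 86.7 and 82.5 CPM in wild-type flies against 117, 144 and 140.3 CPM in chinmoST flies, with no overlap of the strains (log2 fold change 0.49, SE 0.09; edgeR adjusted p = 0.244). The medians were -0.12 over paralogs, 0.10 over ubiquitous members and 0.02 over all genes. With age as a block 1 member passed, against 4.11% of all genes: Prosalpha6, at 22.7, 23.4 and 5.86 CPM in wild-type flies against 34.4, 67.6 and 62.1 CPM in chinmoST flies (block log2 fold change 1.53; edgeR adjusted p = 0.0436). Rpt4R was again the member with the smallest p in early spermatids, at 74.0, 87.7 and 82.1 CPM in wild-type flies against 126, 117 and 126 CPM in chinmoST flies (log2 fold change 0.51, SE 0.08; edgeR adjusted p = 0.217). In late spermatids it was Prosalpha3T, at 17.5, 9.00 and 12.0 CPM in wild-type flies against 21.1, 36.3 and 31.0 CPM in chinmoST flies (log2 fold change 1.12, SE 0.35; edgeR adjusted p = 0.318). Both were higher in each chinmoST library than in any wild-type library, but as both were picked by their p, this adds no support of its own.

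**Figure D5:**
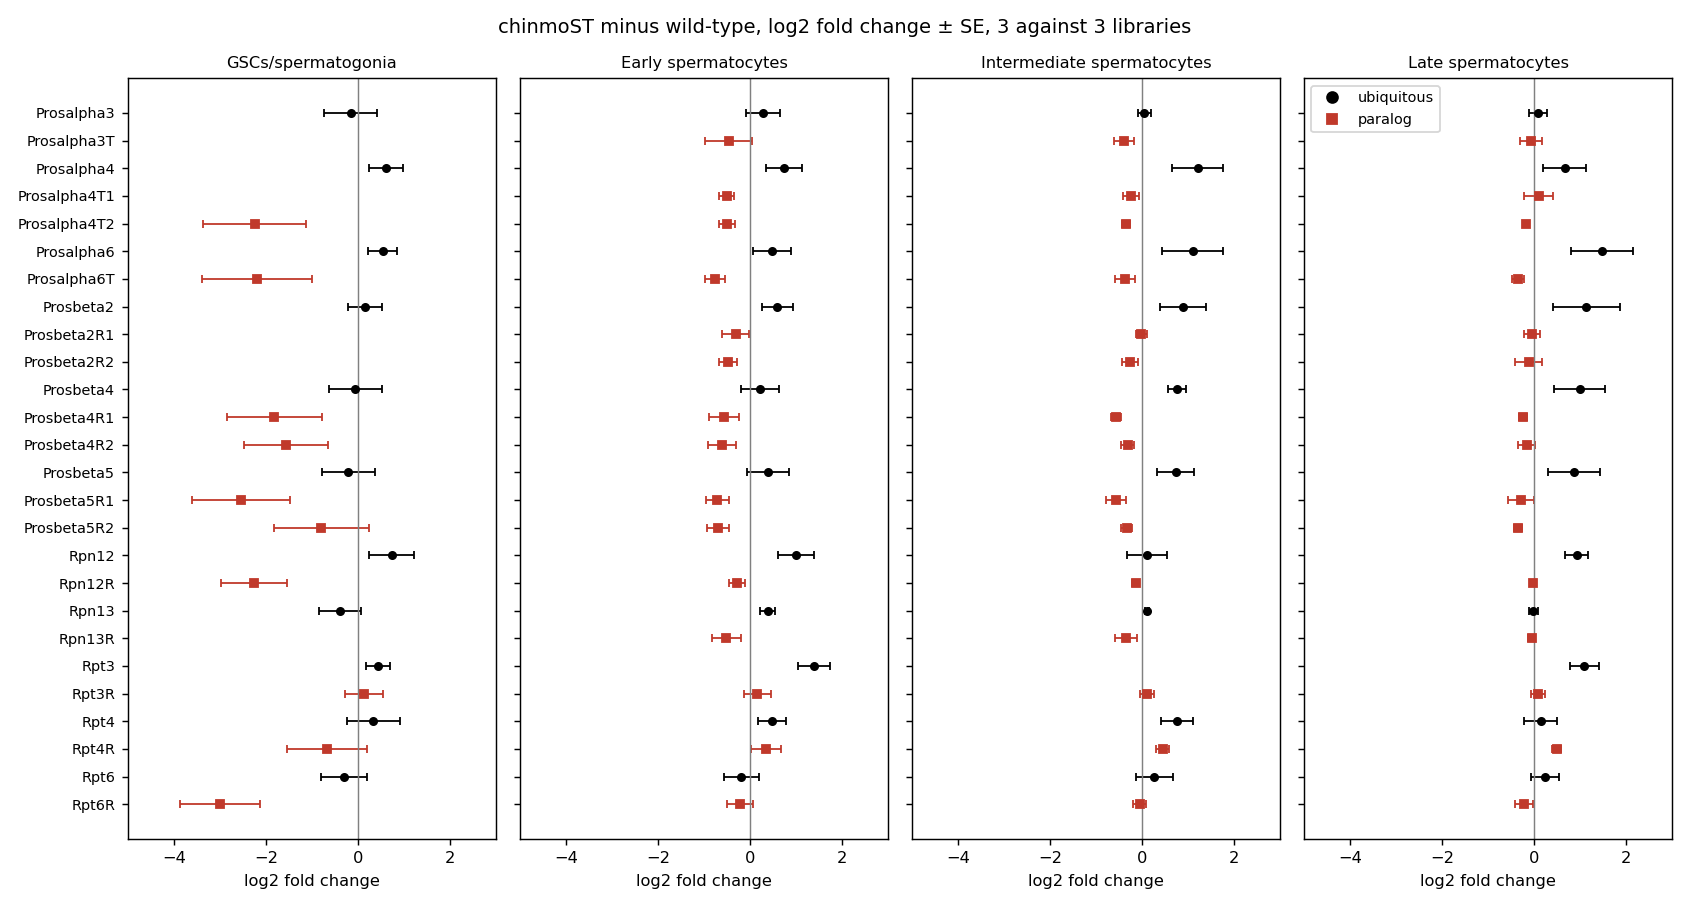
Log2 fold change of chinmoST over wild-type (edgeR) for the paralogs (red squares) and their ubiquitous partners (black circles) in GSCs/spermatogonia and in early, intermediate and late spermatocytes, with bars of 1 SE from the spread of the libraries; a gene that did not pass the filter on low counts has no point. The paralogs' medians are -2.01, -0.50, -0.32 and -0.12 from left to right, and no gene shown passed an adjusted p of 0.05.

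The paralog share, which does not depend on how libraries are scaled, was lower in every chinmoST library than in every wild-type library in the first 4 stages. It was 12.7, 35.1 and 15.5% for wild-type against 8.78, 10.1 and 8.47% for chinmoST in GSCs/spermatogonia, where the highest wild-type value rests on 34 of 97 UMIs (95% Clopper-Pearson interval 25.6 to 45.4%, counting error only). It was 48.3, 64.6 and 53.7% for wild-type against 40.1, 41.1 and 45.5% for chinmoST in early, 72.2, 77.2 and 79.7% for wild-type against 70.1, 65.1 and 66.3% for chinmoST in intermediate and 80.7, 81.6 and 84.7% for wild-type against 78.7, 75.7 and 76.9% for chinmoST in late spermatocytes. The difference of the means, chinmoST minus wild-type, was -12.0 percentage points in GSCs/spermatogonia, -13.3 in early, -9.21 in intermediate and -5.27 in late spermatocytes. The strains were also fully apart in pigment cells, male gonad associated epithelium and early cyst cells, with differences of -15.4, -12.4 and -5.26 percentage points. A lower share in chinmoST was thus not confined to the germline. In the other somatic types the strains overlapped. In early spermatids the share was 81.3 ± 0.432% for wild-type and 80.3 ± 1.26% for chinmoST, and in late spermatids it was 80.6 ± 0.599% for wild-type and 80.0 ± 0.626% for chinmoST. The exact two-sided permutation p of 3 against 3 libraries was 0.1 in each of the first 4 stages, the smallest this test can give, and 0.3 and 0.4 in early and late spermatids; adjusted over the 6 stages the values were 0.15 for each of the first 4 stages, 0.36 and 0.4. With 3 against 3 libraries this exact test could not reach 0.05.

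Among somatic cells, hub cells, CySCs and early cyst cells had few paralogs past the filter on low counts (2, 1 and 1), and the members with the smallest p were Prosbeta5R1 in hub cells (log2 fold change -1.27, SE 1.01; edgeR adjusted p = 0.996), Prosbeta3 in CySCs (-0.62, SE 0.51; 0.864) and Prosbeta4 in early cyst cells (0.43, SE 0.17; 0.746). In intermediate cyst cells the smallest p was that of Prosbeta5R2, at 83.6, 46.2 and 29.5 CPM in wild-type flies against 34.4, 28.9 and 23.3 CPM in chinmoST flies (log2 fold change -0.85, SE 0.46; edgeR adjusted p = 0.599), with overlapping strains. With age as a block 7 members passed, against 19.6% of all genes, and all 7 were paralogs at lower levels in chinmoST: Prosalpha4T2 (block log2 fold change -0.86, edgeR adjusted p = 0.00485), Prosalpha6T (-0.86, 0.00729), Prosbeta2R1 (-0.82, 0.0119), Prosbeta4R2 (-0.58, 0.0164), Prosbeta5R1 (-0.64, 0.0179), Prosbeta5R2 (-0.80, 0.018) and Rpn13R (-0.75, 0.0445). In late cyst cells Prosalpha6T had the smallest p, at 88.7, 59.8 and 33.7 CPM in wild-type flies against 43.6, 30.6 and 26.9 CPM in chinmoST flies (log2 fold change -0.82, SE 0.44; edgeR adjusted p = 1), and with the block it and Prosbeta5R1 passed, against 2.49% of all genes (adjusted p = 0.0317 and 0.0424). The spermatid list, whose genes belong to the germline, was at 5606, 2652 and 1710.2 CPM in wild-type flies against 2935, 1714 and 1200.2 CPM in chinmoST flies in intermediate and at 2716, 1203 and 709 CPM in wild-type flies against 1537, 768 and 820.4 CPM in chinmoST flies in late cyst cells, and was thus lower in chinmoST than in wild-type of the same age in intermediate cyst cells at all 3 ages. Its part in the members' values was not tested.

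Of a list of 21 other genes of the pathway (assembly factors, activators, ubiquitin genes and testis ubiquitin ligases), 20 were in the files and 17 to 19 were tested per cell type. A single one passed in a single type with no block. REG, the activator cap that can take the place of the regulatory particle on the core, was higher in chinmoST early spermatocytes, at 125, 129 and 141 CPM in wild-type flies against 205, 295 and 227 CPM in chinmoST flies (log2 fold change 1.10, SE 0.16; edgeR adjusted p = 0.0419), against 4.03% of all genes. The strains did not overlap for REG, but it no longer passed without any 1 of the 4 libraries of 6 to 8 and 9 to 11 days (adjusted p = 0.13 to 0.238). With age as a block, soti passed in hub cells, at lower levels in chinmoST (block log2 fold change -1.41; edgeR adjusted p = 0.0347), against 6.05% of all genes, and soti is also 1 of the 7 genes of the spermatid list. In intermediate cyst cells 3 of 19 list genes passed with the block, against 19.6% of all genes: ntc, an F-box protein that binds PI31 (block log2 fold change -0.49, edgeR adjusted p = 0.0372) and Roc1b (-0.67, 0.011) were lower in chinmoST and cnc, a transcription factor of proteasome genes (0.53, 0.0474) was higher. Between late spermatocytes and GSCs/spermatogonia, 2 of 19 list genes measured were at least 2-fold higher in every library, Roc1b (4.09 ± 1.38), the RING subunit of a testis Cul3 ubiquitin ligase, and soti (4.50 ± 1.97), an inhibitor of that ligase, against 29.9% of all genes. Lower, against 10.6% of all genes, were REG (-1.84 ± 0.41) and Uba1 (-1.78 ± 0.35), the enzyme that activates ubiquitin. From late spermatocytes to early spermatids 0 were higher (0% of all genes), and Ubi-p5E (-1.62 ± 0.43), a gene for ubiquitin itself, and soti (-1.82 ± 0.30) were lower, against 14.9% of all genes.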

How the data were processed

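Single-cell RNA from testes of 3 wild-type and 3 chinmoST preparations was analysed. According to the methods and labels, the authors aligned 10x 3′ reads to dm6 with Cell Ranger 4.0.0 and processed the matrices with Seurat 3.2.2 (the submitters' notes also list 3.0). The deposited matrices hold raw UMI counts per gene and barcode. The authors kept cells with 200 to 6000 genes and under 10% mitochondrial counts, and their deposited cell types were used unchanged; no doublet caller was run, and no removal of doublets by the authors is stated in the sources read. Positions are those of the BDGP6 annotation, whose assembly is that of dm6, and 17537 of 17612 gene IDs matched a symbol. Sequences of these genes were not used here.

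Counts were summed per library and cell type (at least 3 cells) with Python 3.11.15 and tested with edgeR 4.0.16 in R 4.3.3: 1 quasi-likelihood fit per type with TMM scaling and filterByExpr defaults, and Benjamini-Hochberg adjustment over all genes of that type, with a threshold of 0.05. SEs of log2 fold changes were computed from the spread of log2 CPM (prior count 2) between libraries, not by the fit. The test was checked on simulated data. DESeq2 1.42.0, other scaling, filters, cell minimums and left-out libraries were alternatives. Age was taken to pair the libraries of a cell type where the deviations from the strain means correlated above 0.1 in all 3 pairs, which held in 8 of 11 types (not in GSCs/spermatogonia, early spermatocytes and early cyst cells); the pairing comes from the age label. The exact permutation test cannot go below 0.1 with 3 against 3 libraries.

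Named with values were every paralog and its partner, the called members of a type or else the one with the smallest p, and the lowest and highest ubiquitous member of each subcomplex. Members and lists were chosen with earlier results of these data known. The marker genes nos and Pen and the pathway gene Ufd1-like were not matched in the files.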

Additional observations from a re-analysis of the deposited data

Results flagged for a closer look

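The barcodes that the authors left out for holding more than 6000 genes, 122 to 231 per library, enter no comparison above, and paralog transcripts were abundant in them. In wild-type flies their paralog share was 76.1, 80.0 and 80.9%, and in the chinmoST strain 73.5, 66.5 and 52.2%, at 3 to 5, 6 to 8 and 9 to 11 days. Which cell types these barcodes came from was not tested. Groups of 3 libraries were too small for a check of single outlying libraries.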

How the results depend on the processing

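The direction of the strain difference in the paralog share was the same under all 54 alternatives. From GSCs/spermatogonia to late spermatocytes the strains were fully apart, so leaving out 1 library could not reverse it there. Leaving out 1 library gave -16.1 to -4.96 percentage points in GSCs/spermatogonia, -16.9 to -8.78, -11.3 to -7.52 and -6.08 to -4.08 in early, intermediate and late spermatocytes. It gave -1.47 to -0.306 in early and -0.919 to -0.281 in late spermatids. With signs permuted within ages the smallest p possible is 0.25. Members called between strains numbered 0 in all 11 types but, in GSCs/spermatogonia, 2 with no filter on low counts (1.78% of all genes were called), 2 with a common minimum of 2105 UMIs per cell (3.62%) and 0 to 6 without 1 library; in early spermatocytes 1 (9.09%), 2 (8.16%) and 0 to 4 under the same settings and 8 of 46 with age as a replicate block (27.4%), although ages did not pair there; in intermediate spermatocytes 2 with no filter (2.74%), 2 with the block and 0 to 5 without 1 library; and with the block 1 in late spermatocytes, 7 in intermediate and 2 in late cyst cells. The block changed no other count of members; of the pathway list it also gave 3 calls in early spermatocytes (REG, ntc and Roc1b). The fold change of Prosbeta5R1 in hub cells ran from -2.06 to 0.15 without 1 library, turning positive without the youngest wild-type one. Subtracting the CPM of hemocytes, muscle and pigment cells gave paralog shares of 85.3, 92.5, 89.9 and 90.3% in intermediate and late spermatocytes and early and late spermatids. The ubiquitous subunits with a paralog summed to 1724, 1462 and 1174 CPM in the subtracted types. In late spermatocytes, early spermatids and late spermatids they summed to only 966, 824 and 757 CPM. Negative values were set to 0, so a higher share in these stages follows from the subtraction itself. Weighting subunits equally gave 76.1 and 77.0% in early and late spermatids. At 1.5-fold, 12 members were lower in early spermatids. With at least 10 cells per library, which leaves 1 wild-type library, the share in GSCs/spermatogonia was 10.0% and 13 members were higher in late spermatocytes. The cause of the other changes was not tested. Depth limits GSCs/spermatogonia most, since 3 UMIs there are worth 138.0 CPM in the 6 to 8 day wild-type library.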
